A study of Mus musculus with 11 samples.

Results

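The troponin isoforms measured in mouse left ventricle are the 8 genes of the striated muscle troponin complex: 3 troponin I genes (Tnni1, Tnni2, Tnni3), 3 troponin T genes (Tnnt1, Tnnt2, Tnnt3) and 2 troponin C genes (Tnnc1, Tnnc2). They were taken by gene symbol, and 12 of the 45101 probe sets on the array name 1 of them and no other gene. Each gene was read from its probe set with the highest mean over the 11 arrays, which gives 8 of 18194 genes. A filter on low values, used only as an alternative, kept 14051 genes and all 8 of these. It asks for 2 arrays above percentile 40, which Tnnt3 met only through adult hearts labelled transgenic, where it is highest, so the filter is no check on Tnnt3.

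The hearts fell into 4 groups: transgenic adult (3 arrays), control adult (3), transgenic newborn (3) and control newborn (2), which the labels call biological replicates. Transgenic mice, on a C57BL/6 background, carried the complete mouse Hmgn5 cDNA in a vector whose CAG promoter drives a floxed LacZ cassette. The cassette was removed in heart muscle by crossing to alphaMHC-cre mice, which make the recombinase under the alpha myosin heavy chain promoter. The controls are labelled wild-type, with the same background, and the labels do not say that any of them carried cre, so what cre does and what Hmgn5 does cannot be told apart. The age is given as adult or newborn, with no number of days or weeks. The design asks how overexpression of HMGN5, a nucleosome-binding protein that opens chromatin, changes gene expression in the heart.

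Troponin is the calcium switch of the thin filament. Troponin C binds calcium, troponin I holds the filament in its inhibited state until calcium arrives, and troponin T ties the complex to tropomyosin. The genes are expressed by muscle type and age. Tnnt2, Tnni3 and Tnnc1 encode the complex of the adult heart, and Tnnc1 also serves slow skeletal muscle. Tnni1 and Tnnt1 encode the slow skeletal forms, and slow skeletal troponin I is also the form of the fetal heart, where Tnni3 takes its place around birth. Tnni2, Tnnt3 and Tnnc2 encode the fast skeletal forms.

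The probe set of Hmgn5 did not show the transgene. It read 8.29, 8.26 and 8.71 (log2 signal) in adult hearts labelled transgenic, against 8.44, 8.77 and 8.52 in adult controls. In newborns it read 8.56, 8.84 and 8.69 in hearts labelled transgenic, against 8.85 and 8.81 in controls. Whether the transgene carries the bases that this probe set reads is not given in the sources used here, so it checks nothing and every direction below rests on the labels. Replicate 3 of both adult groups stood apart by the 18S ribosomal RNA control probe sets, whose mean was 12.18 (labelled transgenic) and 11.89 (control), against 7.64 to 8.58 on the other 4 adult arrays. The newborn arrays read 10.05 to 10.53, so the handling of the arrays and age cannot be told apart. The mean level of 11 heart muscle markers that are not troponin genes lay between 12.84 and 13.21 on every array. Array medians were 5.12 to 5.18 and the highest values 14.21 to 14.37. A log2 value has no detection call here, and the number of arrays limits the precision. In whole tissue, fewer cells of a type and less RNA per cell cannot be told apart.

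Troponin genes lie in pairs of an I and a T gene in the mouse genome. Tnni3 and Tnnt1 are direct neighbours on chromosome 7, Tnni1 and Tnnt2 on chromosome 1 have 1 gene between them (Lad1), and Tnni2 and Tnnt3 on chromosome 7 have 2 (Lsp1 and Prr33). RefSeq promoter sequences of build GRCm38.p6 (250 bases before to 50 after each listed start) were at hand for 6 of the 8 genes, 8 windows in all, and were searched for muscle motifs on both strands. The following 30-base stretches show 1 motif each in Tnni1 and Tnnt1, the genes that differed most with age, and in Tnnt2 and Tnnc1, which differed least, with the motif in capitals. Each is written 5′ to 3′ on the strand of its gene.
Tnni1, chr1:135799341-135799370, plus strand: gggaaggaggggCAGCTGgaggggcagcgg
Tnnt1, chr7:4515988-4516017, minus strand: tcagcacctagcTATAAAtccagggggtgc
Tnnt2, chr1:135836295-135836324, plus strand: tctcctgctgcaCATTCCtccctccgcggg
Tnnc1, chr14:31208242-31208271, plus strand: tgggctgggctgGGAATGtagcaggaggtg

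The Tnni1 stretch holds an E-box (CAGCTG), a letter string bound by helix-loop-helix factors, at position -68 from 1 listed start and -158 from the other. The Tnnt1 stretch holds a TATA box (TATAAA) at position -30. Tnnt2 has an M-CAT element (CATTCC), the string bound by TEAD factors, at position -27, and Tnnc1 has it on the opposite strand at position -58. The Tnnt2 window also holds the E-box, at positions -223 and -157, and a GATA motif (AGATAA) on the opposite strand at position -166. Of 32851 mouse promoters of the same length, 16.3% held the E-box, 13.62% the TATA box and 14.66% the M-CAT element on either strand, against 3, 1 and 2 of the 8 troponin windows. The 3 E-box windows belong to 2 of the 6 genes, since the Tnni1 windows overlap and hold the same site. GATA was in 11.18% of all promoters and in 1 of the 8 windows. The MEF2 and CArG motifs were in 3.19% and 1.63% of all promoters and in 0 of the 8 troponin windows, which says only that those letters are not in these windows. These matches are descriptions of sequence, not of binding.

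Troponin I carried the widest difference between adult and newborn hearts. Tnni1, the slow skeletal and fetal form, read 6.09, 5.51 and 5.48 in adult hearts labelled transgenic, against 13.39, 13.52 and 13.54 in newborn hearts with that label. Control hearts gave 5.18, 5.42 and 5.48 in adults, against 13.55 and 13.55 in newborns. Every newborn array was close to the top of the array's range and every adult array was at most 6.09, with no overlap. The mean was 5.69 ± 0.34 in adult and 13.48 ± 0.08 in newborn hearts labelled transgenic (SD, n = 3 each), and 5.36 ± 0.16 (n = 3) in adult and 13.55 ± 0.0012 (n = 2) in newborn controls. The adult minus newborn difference was -7.79 (SE 0.16, 95% interval -8.15 to -7.44, limma adjusted p = 9.03e-10) in hearts labelled transgenic and -8.19 (SE 0.18, 95% interval -8.59 to -7.80, adjusted p = 1.75e-09) in controls. It ranked 1 of 18194 genes tested, by size and by p, in both comparisons.

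**Figure D1:**
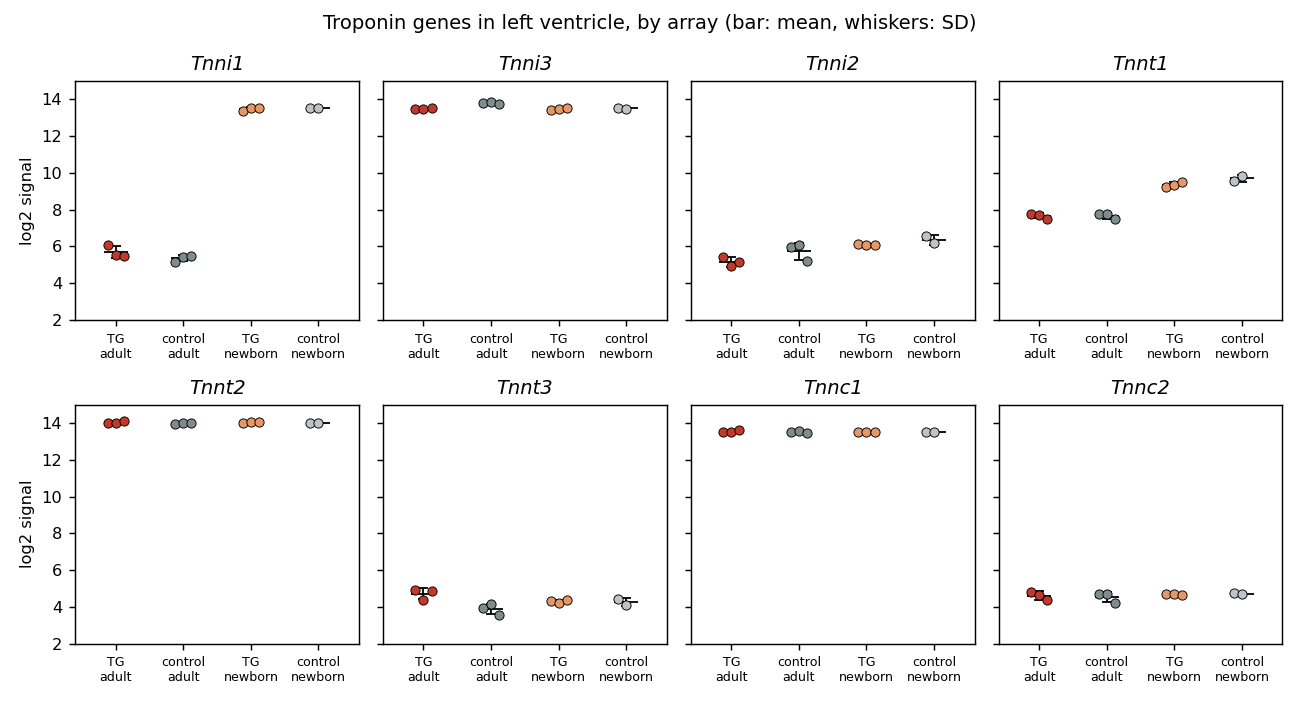
Log2 signal of the 8 troponin genes on each array (y axis, the same for every panel) in the 4 groups (x axis; TG, labelled transgenic), with 1 point per array, a bar at the mean and whiskers of 1 SD. Tnni1 lies at 13.39 to 13.55 on the newborn arrays and at 5.18 to 6.09 on the adult arrays, Tnnt1 is higher on the newborn arrays by less, and Tnni3, Tnnt2 and Tnnc1 lie between 13.44 and 14.10 in all groups.

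Tnni3, the cardiac form, was high at both ages. It read 13.50, 13.51 and 13.52 in adult and 13.44, 13.50 and 13.54 in newborn hearts labelled transgenic. Controls read 13.82, 13.87 and 13.77 in adults, against 13.52 and 13.50 in newborns. The adult control arrays were above all other arrays, while the groups labelled transgenic overlapped. Tnni3 rose in adult controls by 0.31 (SE 0.10, limma adjusted p = 0.0336), and its difference in hearts labelled transgenic was 0.01 (SE 0.09, adjusted p = 0.907). The call in controls held in 12 of 21 alternative analyses, with adjusted p from 0.0153 to 0.148, and was lost, among others, when either control newborn array was left out (0.148 and 0.136).

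Tnni2, the fast skeletal form, read 5.43, 4.92 and 5.16 in adult hearts labelled transgenic, against 6.16, 6.08 and 6.10 in newborn hearts with that label. The control arrays gave 5.95, 6.06 and 5.20 in adults, against 6.57 and 6.17 in newborns. No adult array reached the newborn arrays of its own label, although the adult controls came close. The adult minus newborn difference was -0.95 (SE 0.22, limma adjusted p = 0.00646) in hearts labelled transgenic and -0.63 (SE 0.24, adjusted p = 0.0679) in controls, where it passed without control adult replicate 2 (-0.79, adjusted p = 0.0429). The gene's other 2 probe sets did not share this direction. Probe set 1438608_at read 3.95, 3.96 and 4.05 in adult hearts labelled transgenic, against 3.42, 3.47 and 3.73 in newborn hearts, a difference of 0.45 (SE 0.15, limma adjusted p = 0.0411 among all probe sets). Probe set 1438609_x_at differed by 0.18 (SE 0.13, adjusted p = 0.302). With its 3 probe sets averaged, the difference of Tnni2 in hearts labelled transgenic was -0.11 (limma adjusted p = 0.505), so its fall with age rests on 1 probe set and its direction depends on the probe set.

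Among the troponin T genes, Tnnt1 fell with age under both labels. Tnnt1, the slow skeletal form, read 7.76, 7.71 and 7.51 in adult hearts labelled transgenic, against 9.21, 9.35 and 9.48 in newborn hearts with that label. Among controls the values were 7.77, 7.75 and 7.50 in adults, against 9.57 and 9.84 in newborns. All 6 adult arrays lay below all 5 newborn arrays. Tnnt1 differed by -1.69 (SE 0.13, 95% interval -1.97 to -1.40, limma adjusted p = 5.11e-06) in hearts labelled transgenic and by -2.04 (SE 0.15, 95% interval -2.36 to -1.71, adjusted p = 3.48e-06) in controls. Both Tnni1 and Tnnt1 were called in 21 of 21 alternatives in both comparisons.

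Tnnt2, the cardiac form and the anchor of the adult and fetal heart complex, differed by less than the spread of the arrays. It read 14.03, 14.02 and 14.10 in adult and 14.00, 14.05 and 14.06 in newborn hearts labelled transgenic. Controls gave 13.98, 14.02 and 13.98 in adults and 14.02 and 14.02 in newborns. The groups overlapped, and the adult minus newborn difference was 0.01 (95% interval -0.18 to 0.21) in hearts labelled transgenic and -0.02 (95% interval -0.24 to 0.19) in controls. These values lie close to the array's highest readings, where an array separates levels poorly.

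Tnnt3, the fast skeletal form, read 4.90, 4.40 and 4.89 in adult hearts labelled transgenic, against 4.31, 4.19 and 4.37 in newborn hearts with that label. Adult controls read 3.95, 4.15 and 3.57, against 4.42 and 4.10 in newborn controls. All these values lie below the array median. The adult minus newborn difference was 0.44 (SE 0.18, limma adjusted p = 0.0716) in hearts labelled transgenic and -0.37 (SE 0.20, adjusted p = 0.171) in controls, and neither passed.

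Neither troponin C gene passed over age. The 4 group means of Tnnc1 spanned 0.05, as did those of Tnnt2. Tnnc1, the calcium sensor of heart and slow muscle, read 13.51, 13.54 and 13.61 in adult and 13.49, 13.51 and 13.51 in newborn hearts labelled transgenic. Control values were 13.54, 13.57 and 13.45 in adults and 13.52 and 13.52 in newborns, and the adult control at 13.45 was the lowest of the 11 arrays. Its adult minus newborn difference was 0.05 (95% interval -0.15 to 0.25) in hearts labelled transgenic and 0.0031 (95% interval -0.22 to 0.23) in controls. Tnnc2, the fast skeletal form, read 4.83, 4.66 and 4.37 in adult and 4.72, 4.68 and 4.64 in newborn hearts labelled transgenic. Tnnc2 in controls was 4.68, 4.72 and 4.24 in adults and 4.74 and 4.71 in newborns. It lay below the array median on all arrays, and its differences of -0.06 (95% interval -0.40 to 0.27) in hearts labelled transgenic and -0.18 (95% interval -0.55 to 0.20) in controls did not pass.

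Over age, 0 of the 8 genes rose, 3 fell (Tnni1, Tnnt1 and Tnni2) and 5 did not pass in hearts labelled transgenic, where 19.7% of all genes rose and 19.7% fell. In controls 1 rose (Tnni3), 2 fell (Tnni1 and Tnnt1) and 5 did not pass, where 14.9% of all genes rose and 18.1% fell. The median difference of the 8 genes was -0.03 in hearts labelled transgenic, and -0.28 in controls, beside 0.09 over all genes in both. Markers of other cell types also differed with age, and their part in these results was not tested. Of 17 skeletal muscle markers, 4 rose and 2 fell in hearts labelled transgenic, with a mean level of 5.43 to 5.64 in adults and 5.41 to 5.44 in newborns. In controls 2 rose and 2 fell, at 5.44 to 5.55 in adults and 5.37 to 5.39 in newborns. Of 11 macrophage markers 11 rose and 0 fell in hearts labelled transgenic, and 9 rose and 1 fell in controls. Of 12 fibroblast markers 2 rose and 4 fell in hearts labelled transgenic, with a median difference of -0.04. In controls 1 fibroblast marker rose and 7 fell, with a median of -1.18.

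**Figure D2:**
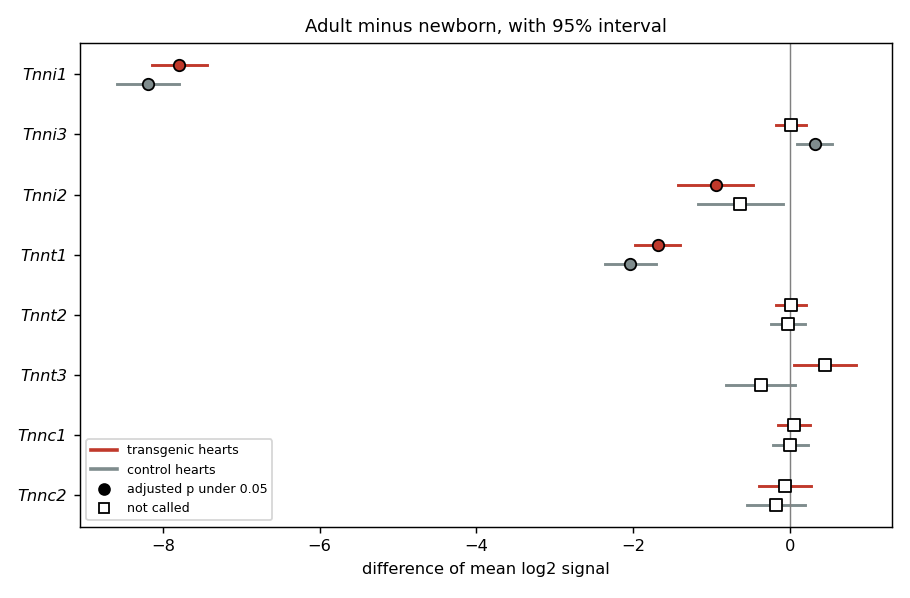
Adult minus newborn difference of mean log2 signal (x axis) for each troponin gene (y axis) in hearts labelled transgenic (red) and in controls (grey), with 95% intervals; filled circles passed an adjusted p of 0.05 and open squares did not. The intervals of Tnni1 lie at -8.15 to -7.44 and -8.59 to -7.80, those of Tnnt1 around -1.69 and -2.04, and those of Tnnt2, Tnnc1 and Tnnc2 include 0.

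Because an array compares a gene with itself better than with another, the shift between isoforms was tested as the change of their within-array difference, over 5 isoform pairs and 3 comparisons (15 two-sided exact permutation tests, Benjamini-Hochberg adjusted over the 15). The difference Tnni1 minus Tnni3 was lower in adults than in newborns by a mean of -8.16 when arrays were permuted within label (exact p = 0.005, the smallest that 200 arrangements allow, adjusted p = 0.025). The difference Tnnt1 minus Tnnt2 changed by -1.85 and Tnni2 minus Tnni3 by -0.95, with the same exact p and adjusted p. Tnnc2 minus Tnnc1 changed by -0.15 (exact permutation adjusted p = 0.497) and Tnnt3 minus Tnnt2 by 0.04 (adjusted p = 0.917). For Tnnt3 minus Tnnt2 the labels went opposite ways, with means of -9.32 in adult and -9.75 in newborn hearts labelled transgenic, and of -10.11 in adult and -9.76 in newborn controls, so the pooled value says little. Tnni3 and Tnnt2 lie close to the highest values of the arrays, so these differences add little to the falls of Tnni1, Tnnt1 and Tnni2 themselves. The difference Tnni2 minus Tnni3 rests on 1 of the 3 Tnni2 probe sets, since the other 2 had higher means in adults under both labels. With averaged probe sets it changed by -0.25, at the same exact p. That change includes the difference of Tnni3 in controls (0.31), so it is not a measure of Tnni2 alone. Averaged Tnni2 itself differed by -0.11 in hearts labelled transgenic (limma adjusted p = 0.505).

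The genes most alike to the troponin genes that spanned over 1 log2 unit across the 4 groups were found by Pearson's r over the 11 arrays, which share their age groups, so that any gene that differs strongly with age will correlate. Clone and predicted-gene names were passed over. For Tnni1 the genes so found were Kif20a (r = 0.9986), Bora (0.9983) and Aurka (0.998), all 3 genes of mitosis. Kif20a averaged 3.89 in adult hearts labelled transgenic and 3.74 in adult controls, and 8.44 in newborn hearts labelled transgenic and 8.42 in newborn controls. For Tnnt1 they were Marcksl1 (0.9892), Lpar3 (0.9882) and Hey2 (0.9882), the last a transcription factor of the ventricle. For Tnni2 they were Pstk (0.9407), Higd2a (0.9382) and Fiz1 (0.9337). These are descriptions over 11 arrays and carry no test.

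Adult hearts labelled transgenic were next set against adult controls. Of the 8 genes 1 passed, Tnnt3, the fast skeletal troponin T, which rose. Its values of 4.90, 4.40 and 4.89 in adult hearts labelled transgenic, against 3.95, 4.15 and 3.57 in adult controls, did not overlap. The difference was 0.84 (SE 0.18, 95% interval 0.45 to 1.24, limma adjusted p = 0.0169), and 1 of 8 called higher and 0 lower stands beside 4.16% and 2.93% of all genes. The mean was 4.73 ± 0.29 in adult hearts labelled transgenic and 3.89 ± 0.29 in adult controls (SD, n = 3 each). The call was kept in 16 of 21 alternatives and depended on single arrays. Those 16 include the low-value filter, which is no check on Tnnt3. They also include fits without a newborn array, which leave the adult difference as it was. It was lost on leaving out transgenic adult replicate 1 (0.76, adjusted p = 0.0624) or control adult replicate 3 (0.68, adjusted p = 0.0526) in the limma fit, and on leaving out both adult replicate 3 arrays (0.60, adjusted p = 0.0516). With only the adult arrays in the fit the difference stayed at 0.84 with a limma adjusted p of 0.104. The level is below the array median in every group, and no detection call shows that the transcript was above background.

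Tnni3, the cardiac troponin I, read 13.50, 13.51 and 13.52 in adult hearts labelled transgenic, against 13.82, 13.87 and 13.77 in adult controls. The groups did not overlap and the spread within each was small, but the difference of -0.31 (SE 0.09, 95% interval -0.51 to -0.12) did not pass over all genes (limma adjusted p = 0.0610). It passed in 3 of 21 alternatives, with the high-18S pair as a factor (adjusted p = 0.0323), with an intensity trend and robust variance (0.0286) and with averaged probe sets (0.0329). Tnni1, the fetal form, read 6.09, 5.51 and 5.48 in adult hearts labelled transgenic, against 5.18, 5.42 and 5.48 in adult controls. The groups overlapped, and Tnni1 differed by 0.33 (SE 0.16, limma adjusted p = 0.285). Without the array at 6.09 the difference was 0.13 (limma adjusted p = 0.629), and no adult array came near the newborn level. Tnni2 read 5.43, 4.92 and 5.16 in adult hearts labelled transgenic, against 5.95, 6.06 and 5.20 in adult controls. Its difference was -0.57 (SE 0.22, limma adjusted p = 0.168). The control value of 5.20 lay within the range of the hearts labelled transgenic, and without that array the difference was -0.84 (adjusted p = 0.0198), and -0.83 (adjusted p = 0.0134) without both adult replicate 3 arrays. These values come from the main probe set of Tnni2. Its other probe sets differed by -0.05 (1438608_at, limma adjusted p = 0.926 among all probe sets) and -0.37 (1438609_x_at, adjusted p = 0.149), and neither passed.

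**Figure D3:**
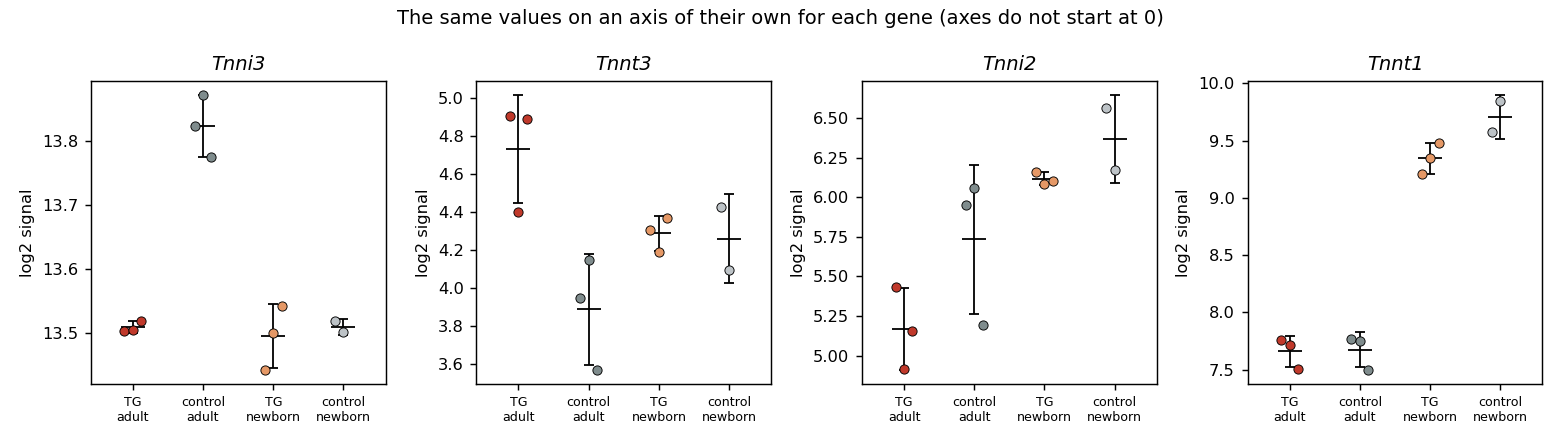
Log2 signal on each array (y axis, a separate range in each panel that does not start at 0) of Tnni3, Tnnt3, Tnni2 and Tnnt1 in the 4 groups (x axis; TG, labelled transgenic), with the mean and 1 SD. Adult arrays labelled transgenic lie below adult controls for Tnni3 (13.50 to 13.52 against 13.77 to 13.87) and above them for Tnnt3 (4.40 to 4.90 against 3.57 to 4.15).

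The remaining 4 genes were within the spread of the arrays in adults. Tnnt1 differed by -0.01 (95% interval -0.30 to 0.28), Tnnt2 by 0.05 (-0.14 to 0.25), Tnnc1 by 0.03 (-0.17 to 0.23) and Tnnc2 by 0.07 (-0.26 to 0.41). The median over the 8 genes was 0.04, beside 0.0048 over all genes. In the isoform pairs, Tnni1 minus Tnni3 was higher by 0.65 in adult hearts labelled transgenic, with a mean of -7.82 in hearts labelled transgenic and -8.46 in controls, and Tnnt3 minus Tnnt2 by 0.79. Both reached the exact permutation p of 0.1, the smallest that 3 arrays against 3 allow, with an adjusted p of 0.25, so this design could not show them at a threshold of 0.05.

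In newborn hearts 0 of 8 troponin genes passed, where 0% of all genes did. Tnnt1 was 9.21, 9.35 and 9.48 in newborn hearts labelled transgenic, against 9.57 and 9.84 in newborn controls. The groups did not overlap, but the difference of -0.36 (SE 0.15, 95% interval -0.68 to -0.04) had an unadjusted limma p of 0.0312 and an adjusted p of 0.999985. Read from the main probe sets, Tnnt1 was 1 gene of the 8 under an unadjusted p of 0.05, beside 198 of all 18194 genes. The other 7 genes differed by -0.25 (Tnni2) to 0.03 (Tnnt3). A further Tnni2 probe set, 1438609_x_at, read 4.64, 4.51 and 4.55 in newborn hearts labelled transgenic, against 4.95 and 5.05 in newborn controls. These values did not overlap, and the difference of -0.43 (SE 0.14) was larger than that of Tnnt1. The gene's remaining probe set, 1438608_at, differed by -0.20 (SE 0.165), with overlapping groups. Neither passed among all probe sets. The change of Tnnt1 minus Tnnt2 was -0.38 (exact permutation p = 0.1, the smallest possible, adjusted p = 0.25).

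**Figure D4:**
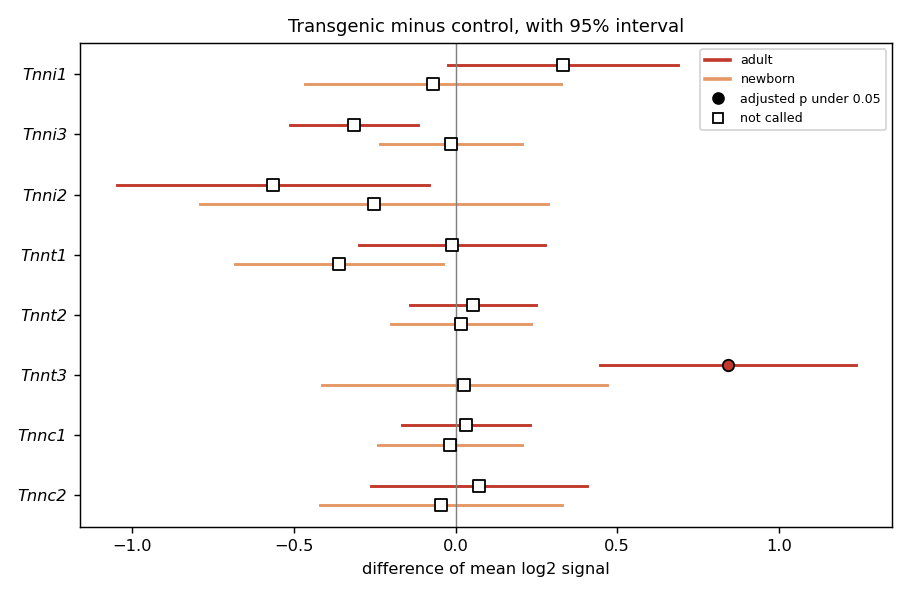
Difference of mean log2 signal between hearts labelled transgenic and controls (x axis) for each troponin gene (y axis) in adults (red) and newborns (orange), with 95% intervals; the filled circle passed an adjusted p of 0.05 and open squares did not. Tnnt3 in adults, at 0.84, is the filled one, and in newborns its difference was 0.03.

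Whether the effect of the label differed between ages was tested as an interaction. None of the 8 genes passed, where 0.687% of all genes did (limma). At an unadjusted p under 0.05 there were 2 of the 8 genes, beside 1819 of all 18194 genes. The effect on Tnnt3 was larger in adults by 0.81 (SE 0.27, unadjusted p = 0.0117, adjusted p = 0.273), and that on Tnni3 lower by -0.30 (SE 0.13, unadjusted p = 0.0475, adjusted p = 0.489). Adult and newborn results for Tnnt3 are therefore not shown to differ.

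Markers of other cell types differed with the label in adults, where 4.16% of all genes rose and 2.93% fell. Their part in the troponin results was not tested. Of 17 skeletal muscle markers, 1 rose (the light chain gene Myl1 by 2.11, limma adjusted p = 0.0153), 1 fell (Trdn, also a heart gene, with a difference of -0.69) and 15 did not pass. The list's mean level was 5.43 to 5.64 in adult hearts labelled transgenic, against 5.44 to 5.55 in adult controls, and its lowest member Myf6, a skeletal muscle transcription factor, had group means of 2.87 to 3.04. Of 12 fibroblast markers 4 rose and 0 fell, with a mean level of 9.93 to 10.55 in adult hearts labelled transgenic, against 8.85 to 9.74 in adult controls. Of 11 macrophage markers 4 rose and 0 fell, at 8.46 to 9.05 under the label transgenic, against 7.87 to 8.18 in controls. Of 10 smooth muscle markers 3 rose and 1 fell, at 8.89 to 9.05 under the label transgenic, against 8.42 to 8.83 in controls. Of 11 atrial markers 3 rose, 2 fell and 6 did not pass, with a mean level of 8.16 to 9.29 in adult hearts labelled transgenic, against 8.94 to 9.97 in adult controls. The 3 that rose were the atrial natriuretic peptide gene Nppa (2.35), Dkk3 (1.78) and Clu (1.18). The 2 that fell were Kcnj3 (-2.49, limma adjusted p = 8.13e-05) and Stard10 (-1.78, adjusted p = 0.00317). Among those that did not pass were Myl4, Myl7 and Sln (limma adjusted p = 0.158, 0.0605 and 0.0575). The mean of these last 3 was 10.53, 6.59 and 6.52 in adult hearts labelled transgenic, against 10.10, 10.38 and 12.24 in adult controls. With this mean as a covariate the difference of Tnnt3 was 0.85 (SE 0.27, limma adjusted p = 0.183), beside 0.84 (SE 0.18) without it. The number of all genes called in adults was 238 with the covariate, against 1290. The mean was tied in part to the label, so this fit does not separate the label from these atrial genes.

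Troponin sits on the thin filament. Of 20 thin filament genes, 2 rose, 2 fell and 16 did not pass in adult hearts labelled transgenic, with a median of 0.17 beside 0.0048 over all genes. In this comparison 4.16% of all genes rose and 2.93% fell. The adult counts between labels in the lists that follow stand beside that background. Acta1, skeletal alpha actin, read 13.58, 13.25 and 13.70 in adult hearts labelled transgenic, against 11.52, 10.16 and 11.36 in controls, with no overlap (2.49, SE 0.29, limma adjusted p = 7.22e-04). The smooth muscle actin gene Acta2 rose by 1.56 (adjusted p = 0.00162). The filament-end protein gene Tmod4 (-1.98) and the nebulin relative Nebl (-0.66) fell. Over age, 5 rose and 3 fell in hearts labelled transgenic, and 4 rose and 5 fell in controls, near the background of 19.7% of all genes in each direction under the label transgenic, and of 14.9% higher and 18.1% lower in controls. The counts over age in the lists that follow stand beside the same background. The tropomyosin gene Tpm2 fell under both labels (-1.35 in hearts labelled transgenic and -1.68 in controls), and the filament-length regulator Lmod2 rose (1.94 and 1.51).

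On the thick filament 1 of 16 genes rose, 1 fell and 14 did not pass in adult hearts labelled transgenic. Myh7, the beta myosin heavy chain of the fetal mouse ventricle, read 12.86, 13.08 and 12.93 in adult hearts labelled transgenic, against 12.10, 9.45 and 9.58 in controls (2.58, SE 0.53, limma adjusted p = 0.0147). The groups did not overlap, and 1 control array lay far above the other 2. Tnni1, which like Myh7 was high in newborn hearts, was not called in the same comparison. The difference between the changes of Myh7 and Tnni1 was not tested.

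Of 17 kinases and phosphatases of troponin, 3 rose and 0 fell in adult hearts labelled transgenic, namely the protein kinase C gene Prkcd by 0.81 (limma adjusted p = 0.00180), the cGMP-dependent kinase gene Prkg1 by 0.70 and the protein kinase A regulatory subunit gene Prkar1a by 0.53. Over age, 2 rose and 4 fell in hearts labelled transgenic, and 1 rose and 6 fell in controls, with the phosphatase inhibitor gene Ppp1r1a lower under both labels (-2.05 and -1.35). Of 11 muscle splicing regulators, among them those that choose exons of troponin T, 0 rose and 1 fell in adult hearts labelled transgenic (Rbfox1, -2.38, limma adjusted p = 0.00195). Over age, 2 rose and 5 fell in hearts labelled transgenic, and 2 rose and 4 fell in controls, with Ptbp1 (-1.03 and -1.12) and Mbnl3 (-1.66 and -1.85) lower under both.

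Of 14 genes that regulate troponin genes, 1 rose and 0 fell in adult hearts labelled transgenic. It was Dio2, the enzyme gene that activates thyroid hormone, at 8.34, 9.34 and 6.39 in adult hearts labelled transgenic, against 5.43, 4.56 and 4.86 in controls (3.07, SE 0.56, limma adjusted p = 0.00821). Over age, 1 rose and 9 fell in hearts labelled transgenic, and 1 rose and 6 fell in controls. The thyroid hormone receptor gene Thra fell under both labels (-1.09 and -1.03), and Thrb rose in controls (0.65, limma adjusted p = 0.00788). The mean of Thrb was 4.32 in adult and 3.66 in newborn controls, and 4.15 in adult and 3.85 in newborn hearts labelled transgenic. These means are the lowest of the list and lie below the array median. In newborns 0 genes of these 5 lists passed in limma, as 0 did of all genes tested, with 198 of those at an unadjusted p under 0.05.

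Tnnt2 has 2 further probe sets, of which 1 follows the main one. Probe set 1418726_a_at lay between 13.63 and 13.94 on every array. Probe set 1440424_at read 5.21, 5.63 and 9.81 in adult hearts labelled transgenic, against 6.64, 6.47 and 9.45 in adult controls. In newborns it read 9.43, 8.38 and 8.41 in hearts labelled transgenic, against 8.83 and 8.17 in controls. The 2 adult arrays near the newborn level are those of high 18S signal, and the nuclear transcript Malat1 was also high on them, at 13.04 (labelled transgenic) and 12.75 (control), against 8.15 to 9.33 on the other adult arrays and 11.63 to 11.94 on newborn arrays. No comparison of this probe set passed (adult difference between labels -0.64, SE 1.13, limma adjusted p = 0.867 among all probe sets).

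**Figure D5:**
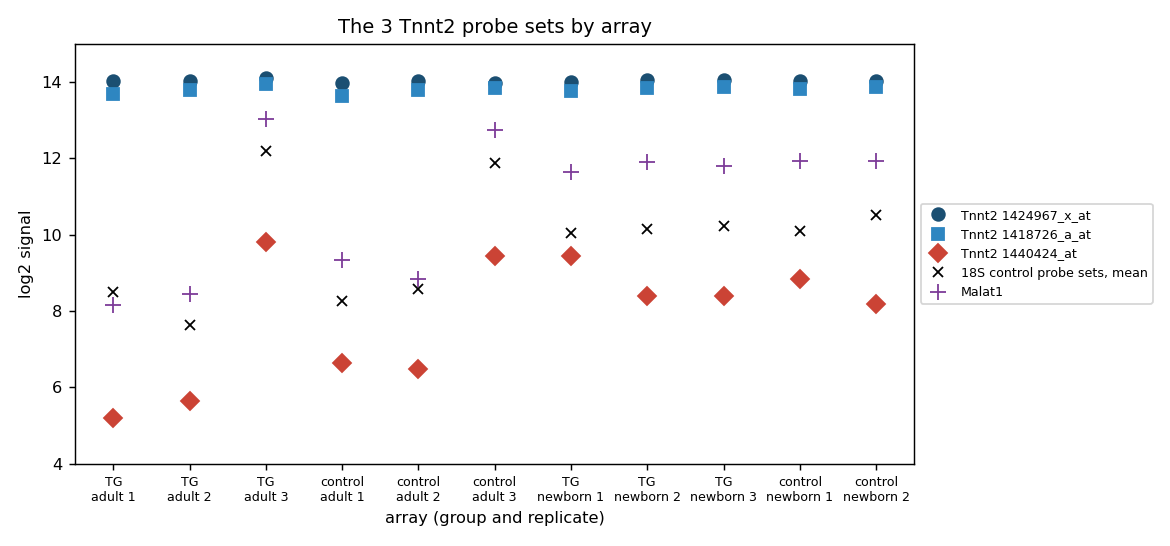
Log2 signal (y axis) on each of the 11 arrays (x axis) of the 3 Tnnt2 probe sets, the mean of the 18S control probe sets and Malat1. Probe set 1440424_at lies between 5.21 and 9.81 and is lowest on the 4 adult arrays of low 18S and Malat1 signal, while the other Tnnt2 probe sets stay at 13.63 to 14.10.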

How the data were processed

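Total RNA from left ventricle was labelled as biotinylated cRNA and hybridised to Affymetrix mouse arrays, per the labels' protocols. The authors deposited log2 values, 1 column per array. The submitters' processing notes name RMA, affy and limma, with no version or role, and no genome build is given in the sources used here. Nearly equal array medians leave a shift of most transcripts in 1 direction invisible. Each gene was read from its single-symbol probe set of highest mean over the 11 arrays, named by the platform annotation.

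Means of the 4 groups were fitted together to 18194 genes with limma 3.58.1 in R 4.3.3 (lmFit, eBayes, 2-sided), and p-values were adjusted by Benjamini and Hochberg over all genes, with calls at 0.05. The procedure was tested on simulated data with known changes and independent noise for each gene and array. That simulation holds no deviation shared by arrays, such as that of the high-18S pair, so it does not cover this feature. Isoform differences were tested by exact permutation. RefSeq tables of GRCm38.p6 gave names, neighbours and promoter sequences.

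All 8 troponin genes are named, with up to 4 genes of smallest p per list and comparison, and the 3 genes most alike to each troponin gene that spans over 1 log2 unit. Other genes named were chosen after their values were seen. The members and lists were chosen with earlier results of these data known. Alternatives were a replicate block, the compared groups only, a low-value filter (above percentile 40 of the array on 2 or more arrays), every probe set tested, averaged probe sets per gene, eBayes with trend and robust variance, cyclic loess, the high-18S pair as a factor or left out, an atrial covariate and leaving out each array.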

Additional observations from a re-analysis of the deposited data

How the results depend on the processing

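Tnni1 and Tnnt1 kept their fall with age in all 21 alternatives in both labels. In adults, the count of troponin genes that differed between labels was 1, and became 0 with only the compared groups and with the atrial covariate, and 2 with averaged probe sets, the intensity trend and the high-18S factor, where Tnni3 joined Tnnt3. Leaving out each array gave 0 to 1. The call lost without transgenic adult replicate 1 was Tnnt3, and without control adult replicate 3, or without both adult replicate 3 arrays, the call was Tnni2 in its place. Leaving out each array gave 0 to 0 in newborns and for the difference between ages, 2 to 3 for age in controls and 3 to 4 for age in hearts labelled transgenic. Over all genes the adult count of 1290 was 2625 with the high-18S factor, 2183 without that pair, 373 with only the compared groups, 238 with the atrial covariate, 746 without control adult replicate 2 and 2267 without transgenic adult replicate 3. The differences over age of Tnni1 minus Tnni3, Tnnt1 minus Tnnt2 and Tnni2 minus Tnni3 without the high-18S pair were -8.14, -1.76 and -0.83, with an exact p of 0.0167 (adjusted 0.0833), because fewer arrays allow fewer arrangements. Leaving out each array gave -8.26 to -8.10, -1.92 to -1.79 and -1.05 to -0.83.

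With the replicate block the adult count stayed at 1, and the call of Tnni3 for age in controls was lost (0.31, adjusted p = 0.0694). Deviations of same-numbered adult arrays correlated at 0.31, -0.06 and 0.45 and those of newborn arrays at 0.18 and -0.15, so the numbers are not shown to pair the hearts. No called value changed sign in any alternative, but the alternative with every probe set tested still read each gene from its main probe set. Outside these alternatives, Tnni2 probe set 1438608_at was called the other way over age in hearts labelled transgenic. It differed by 0.45 (limma adjusted p = 0.0411 among all probe sets), against -0.95 from the main probe set. Signal near the top of the array (Tnni3, Tnnt2, Tnnc1) and below its median (Tnnt3, Tnnc2) limits what a difference can show, and 2 control newborn arrays limit the newborn tests.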
